A study of Anas platyrhynchos with 12 samples.

Results

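The 10 gene symbols of lipid handling described here were followed in duck (Anas platyrhynchos) breast muscle: LPL, CD36 and FABP4 for fatty acid uptake and binding, PLIN1 and PLIN2 for the coat of lipid droplets, PNPLA2 and G0S2 for lipolysis, FASN and SCD for synthesis and desaturation, and PPARG for transcription. Members were chosen by gene symbol, with G0S2 also fixed by gene number. SCD was taken by gene number alone, since its symbol in the deposited table is SCD1. The 10 genes gave 11 of 16433 gene models in the deposited table. PNPLA2 matched 2 models. The first (ncbi_101796497) carries this symbol in the RefSeq gene table as well, while the second (ncbi_101802708) was named in the deposited table after a chicken PNPLA2 isoform and has no gene symbol in RefSeq, so its identity is uncertain. The FABP4 model (ncbi_101792626) also has no symbol in RefSeq and is described in the deposited table as an adipocyte-like fatty acid-binding protein of the goose. The other models were ncbi_101796218 (LPL), ncbi_101796495 (CD36), ncbi_101795741 (PLIN1), ncbi_101799911 (PLIN2), ncbi_101803046 (G0S2), ncbi_101796973 (FASN), ncbi_101801349 (SCD) and ncbi_101792429 (PPARG).

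The samples came from an F2 duck population reared under common conditions with free access to food and water, and breast muscle was taken at 42 days after birth. The HB group held 6 samples from ducks with high breast muscle ratios and the LB group 6 samples from ducks with low breast muscle ratios. No treatment, sex, litter or batch is given in the labels, and nothing states that the samples of a group came from separate birds, and the p-values therefore speak only of the spread between these samples. RNA was measured by sequencing of whole muscle, in which fewer cells of a type and less RNA per cell cannot be told apart.

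Fat in a muscle lies in adipocytes between the fibre bundles and in lipid droplets inside the fibres. Lipoprotein lipase, the product of LPL, frees fatty acids from circulating lipoproteins at the capillary wall, the receptor CD36 carries them into the cell, and small binding proteins such as FABP4 hold them in the cytosol. Perilipins coat the droplet and limit access to it, PNPLA2 (adipose triglyceride lipase) makes the first cut in stored triacylglycerol, and G0S2 is a small protein that inhibits PNPLA2. In birds most new fatty acids are made in the liver, with FASN as the synthase and SCD as the desaturase that puts in the first double bond, and PPARG is the nuclear receptor that drives adipocyte genes.

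HB libraries held 33124019 to 42503751 counts and LB libraries 24090771 to 39718065. Muscle fibre transcripts were present throughout, with 27044 to 58166 FPKM of the skeletal actin gene ACTA1. Library HB-4 stood apart from the others. Its median correlation of log2 expression with the other libraries was 0.922, where the other 11 libraries had medians of 0.962 to 0.974. In HB-4 the troponin gene TNNC1 held 5.56 FPKM against 1186 to 2468 FPKM elsewhere, and the summed FPKM of 8 endothelial gene models was 246.7 in HB-4 against 372 to 773 elsewhere. The differences of the members are therefore given with and without HB-4.

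None of the 11 lipid gene models separated the groups. Of the 11 gene models, all of which passed the filter on low counts, 0 had an adjusted p under 0.05 in edgeR, where the background over 12577 tested genes was 0.0%. An unadjusted p under 0.05 was found for 0 members and for 4.6% of tested genes, 2.34% higher and 2.27% lower in HB, and without HB-4 for 0 members and 4.24% of tested genes. DESeq2 called 1 of 14981 genes (0.00668%) and limma called 0, and no member was called by either. The smallest unadjusted p of a member in edgeR was 0.125, for SCD. HB and LB libraries overlapped for all 11 members, where 0.0954% of tested genes had groups that did not overlap. Differences in either direction were about equally common, with 6 members above and 5 below 0 and a median log2 difference of 0.12, beside -0.0003 over all tested genes. Without HB-4 the count turned to 3 above and 8 below 0, and the median was -0.16, beside -0.01 over all tested genes.

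**Figure D1:**
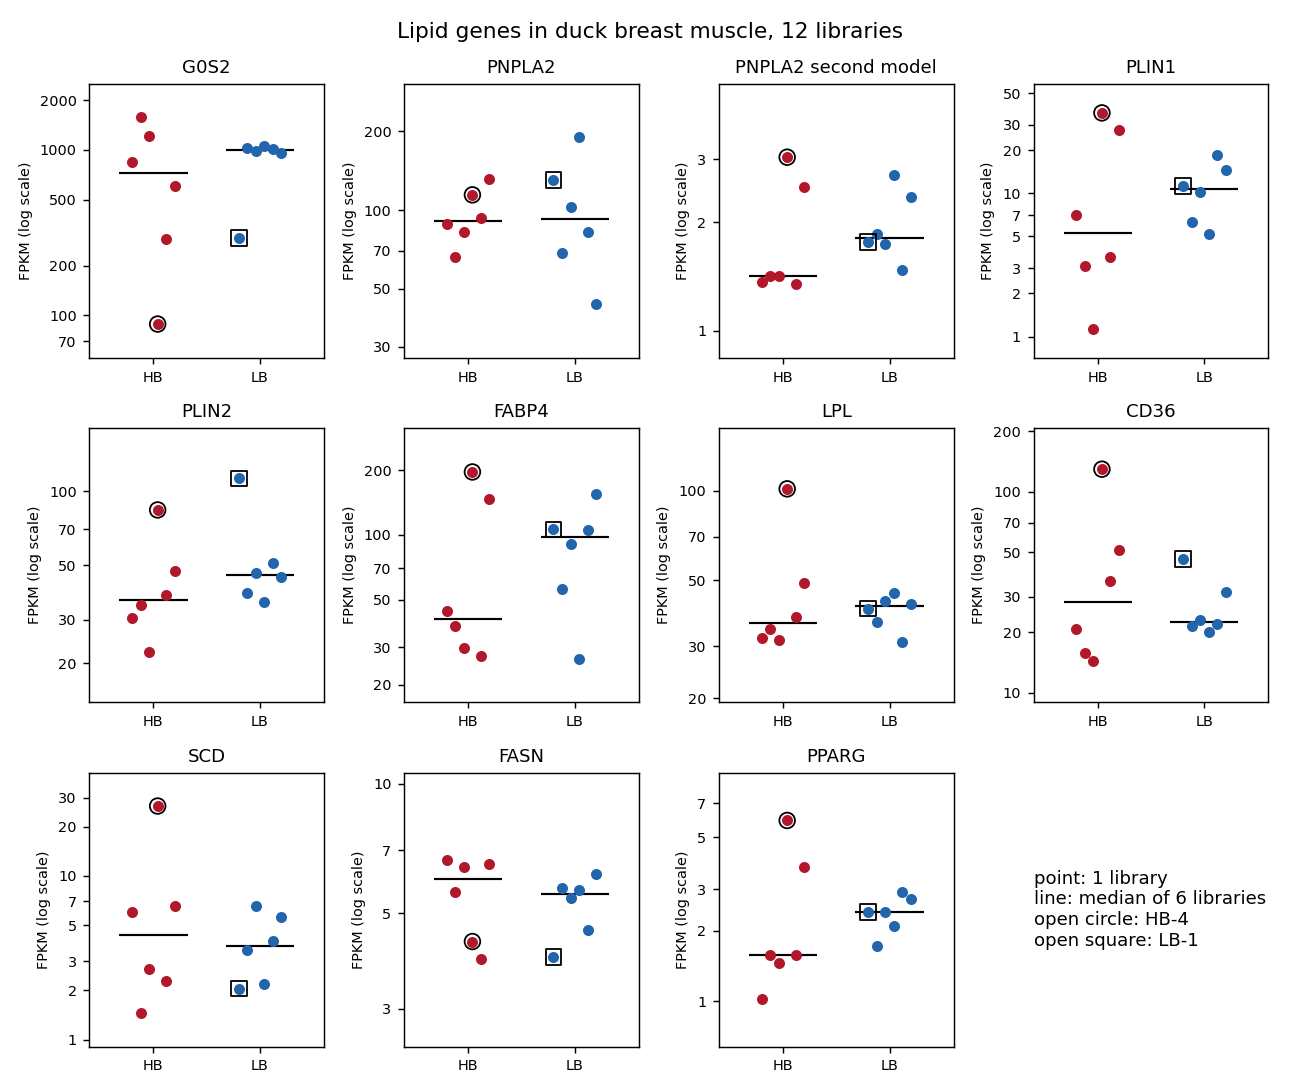
FPKM (log scale) of the 11 gene models in HB (red, left) and LB (blue, right), 1 point per library with the median of 6 as a line. HB-4 is circled and LB-1 boxed. HB-4 holds the highest value of LPL (101.3), CD36 (129.3), PLIN1 (36.4), FABP4 (196), SCD (26.7) and PPARG (5.91) and the lowest of G0S2 (88.7), while LB-1 holds the highest value of PLIN2 (112.6).

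The members differed widely in level. FPKM is scaled by gene length, so levels of different genes can be set side by side as far as the gene models are complete. The deposited descriptions of FASN and PPARG read partial. G0S2 was by far the most abundant, with 830 ± 431 FPKM over the 12 libraries (mean ± SD), which placed it at rank 80 of all gene models. PNPLA2 followed with 99.5 ± 38.7 FPKM, FABP4 with 85.2 ± 57.7, PLIN2 with 48.8 ± 25.2, LPL with 43.5 ± 19.1 and CD36 with 36.0 ± 31.6. PLIN1 had 12.1 ± 10.7 FPKM, SCD 5.79 ± 6.84, FASN 5.40 ± 0.99 and PPARG 2.46 ± 1.32, and the second PNPLA2 model had 1.92 ± 0.59. The step from G0S2 to PNPLA2 and that from FASN to PPARG exceeded the SD of both genes, while every other pair of neighbours in this order differed by less than the larger SD. CD36 nevertheless lay above PLIN1 in 12 of 12 libraries. SCD lay above FASN in only 3 of 12 libraries, although its mean was the higher of the pair.

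The uptake and binding genes LPL, CD36 and FABP4 had their largest values in HB-4. In HB the level of LPL ran from 31.4 to 101.3 FPKM with a median of 35.8, and in LB it ran between 31.1 and 45.3 FPKM with a median of 40.9. HB-4 and HB-6 (48.8 FPKM) were the 2 HB libraries above the whole LB range, and the other 4 HB libraries lay inside it. The log2 difference of LPL was 0.31 ± 0.28 (SE; 95% interval -0.30 to 0.92; p 0.288 and adjusted p 0.977 in edgeR), and without HB-4 it was -0.07 ± 0.15.

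CD36, the fatty acid receptor, spread further. The HB values ran from 14.3 to 129.3 FPKM with a median of 28.4, and the LB values from 20.04 to 46.2 FPKM with a median of 22.5. HB-4 and HB-6 lay above all LB libraries and HB-2 (15.7 FPKM) and HB-3 below all of them, so that the HB group enclosed the LB group. Its log2 difference was 0.74 ± 0.51 (95% interval -0.36 to 1.84; adjusted p 0.977 in edgeR), and 0.03 ± 0.36 without HB-4.

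FABP4, a carrier of fatty acids best known from adipocytes and macrophages, had the opposite order of medians to CD36. Its HB values reached from 27.4 to 196 FPKM with a median of 40.8, and its LB values from 26.6 to 155.3 FPKM with a median of 98.1. In 4 HB libraries FABP4 lay at 44.1 FPKM or less, a level that only LB-4 of the LB libraries fell under, while HB-6 (146.9 FPKM) lay near the top of the LB range and HB-4 above it. The log2 difference was -0.11 ± 0.54 (95% interval -1.27 to 1.05; adjusted p 0.993 in edgeR) and -0.63 ± 0.48 without HB-4, and 5 of the 12 fits that each left out 1 library turned its sign, with a highest value of 0.07 without LB-6.

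**Figure D2:**
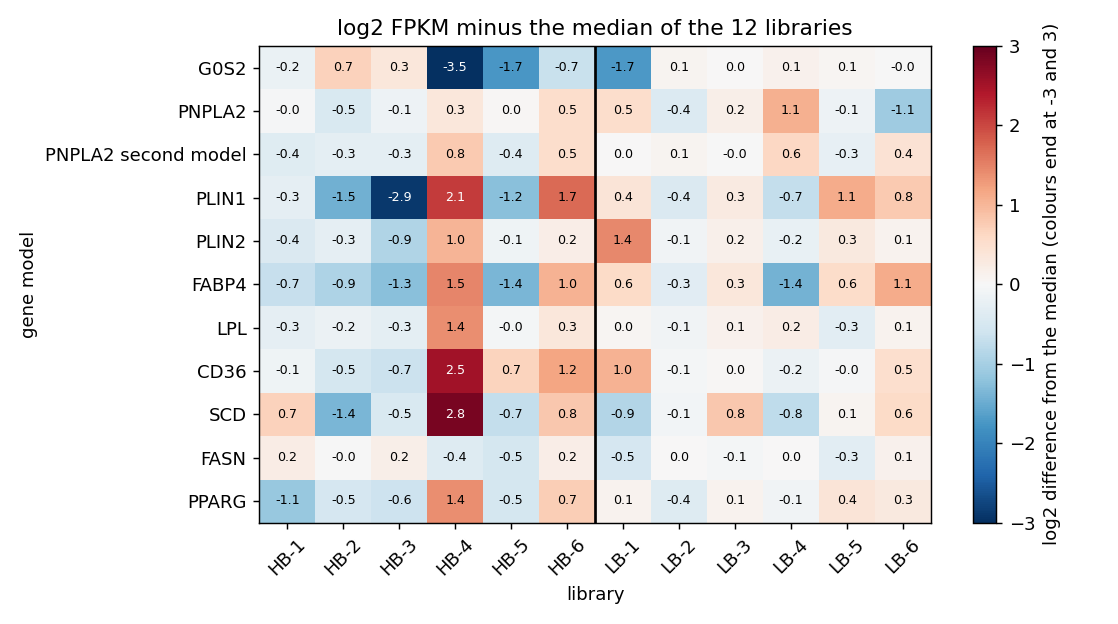
Each cell gives the log2 FPKM of a gene model in a library minus its median over the 12 libraries, with HB left of the black line and LB right of it. Red marks values above and blue below the median, and HB-4 and HB-6 are red for PLIN1, FABP4, CD36, SCD and PPARG, while HB-2, HB-3 and HB-5 are blue for them except CD36 in HB-5.

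Among the droplet coat genes, PLIN1 had the widest HB range of all members. PLIN1, the perilipin of adipocyte droplets, spanned 1.14 to 36.4 FPKM in HB (median 5.31), against 5.21 to 18.4 FPKM in LB (median 10.7). The highest HB value was 31.95 times the lowest, against 3.53 times in LB. HB-2, HB-3 and HB-5 lay below every LB library and HB-4 and HB-6 (27.8 FPKM) above every one, and the counts behind the lowest value were 106 reads in HB-3. The log2 difference of PLIN1 was 0.31 ± 0.70 (95% interval -1.19 to 1.81; adjusted p 0.991 in edgeR). It was -0.35 ± 0.64 without HB-4, and also negative without HB-6.

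PLIN2 coats droplets in most cell types, muscle fibres included. It lay between 22.2 and 83.9 FPKM in HB (median 36.2), against 35.6 to 112.6 FPKM in LB (median 45.6). HB-1, HB-2 and HB-3 lay below every LB library, and LB-1 lay far above the next LB library, which held 51.1 FPKM. The log2 difference was -0.34 ± 0.37 (95% interval -1.14 to 0.45; p 0.365 and adjusted p 0.977 in edgeR). It was -0.67 ± 0.32 without HB-4 (p 0.0613 unadjusted, adjusted p 0.995) and 0.07 without LB-1, so its sign rests on that library.

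PLIN2 and LPL lie on the Z chromosome in the RefSeq table. In HB-3 the 400 Z chromosome genes with at least 1 FPKM in every library had a median 0.36 log2 units below that of other chromosomes, relative to each gene's median over the libraries, and in the other 11 libraries this value lay between -0.05 and 0.05. HB-3 held the lowest PLIN2 value and the lowest LPL value of the HB group. Without HB-3 the log2 differences were -0.21 for PLIN2 and 0.41 for LPL. The part of Z dosage in these 2 values was not tested.

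In lipolysis, PNPLA2 and its inhibitor G0S2 behaved unlike each other. PNPLA2 ranged from 65.99 to 131.9 FPKM in HB, with a median of 91.03, and from 43.6 to 190.4 FPKM in LB, with a median of 92.5. The HB values lay inside the LB range. By the ratio of highest to lowest value over all libraries, PNPLA2 was the only member with a wider range in LB (4.37 times). Without HB-4, PLIN2 and FABP4 also had the wider range in LB. Their remaining HB libraries held 22.2 to 47.2 FPKM of PLIN2 and 27.4 to 146.9 FPKM of FABP4. Over all tested genes with no value of 0 the range was wider in HB for 57.8%, and over the members for 10 of 11. The log2 difference of PNPLA2 was -0.10 ± 0.33 (95% interval -0.80 to 0.61; adjusted p 0.991 in edgeR), -0.16 without HB-4, 0.02 without LB-1 and 0.19 without LB-4. The second PNPLA2 model stayed between 1.35 and 3.04 FPKM in all libraries, with a log2 difference of -0.06 ± 0.25 and -0.27 without HB-4, and 5 of the 12 fits without 1 library turned its sign. In 4 HB libraries it lay below the lowest LB value of 1.47 FPKM.

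G0S2 spread over 88.7 to 1571 FPKM in HB, around a median of 728, and over 293.8 to 1054 FPKM in LB, around a median of 997. LB-2 to LB-6 lay close together, between 963 and 1054 FPKM, and LB-1 lay far below them. The HB libraries were scattered, with HB-2 (1571) and HB-3 (1219) above every LB library, HB-1 (847) and HB-6 (609) between, and HB-5 (290.1) and HB-4 below every one. The log2 difference was -0.17 ± 0.51 (95% interval -1.27 to 0.93; adjusted p 0.991 in edgeR) and 0.07 ± 0.37 without HB-4.

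The ratio of G0S2 to PNPLA2 transcripts, both in FPKM, ran from 0.775 in HB-4 to 23.8 in HB-2 within HB, and from 2.25 in LB-1 to 22.1 in LB-6 within LB. HB-4 was the only library in which PNPLA2 exceeded G0S2. LB-6 reached its high ratio with the lowest PNPLA2 of all libraries and an ordinary G0S2 level, whereas LB-1 combined a low G0S2 with a PNPLA2 level of 130.4 FPKM.

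For synthesis and desaturation, FASN was the most even member. FASN stayed within 3.91 to 6.63 FPKM in HB and 3.95 to 6.17 FPKM in LB, so that the highest value was 1.696 times the lowest in HB and 1.56 times in LB. In 3 HB libraries it lay above every LB library and in 1 below every one. Its log2 difference was 0.12 ± 0.13 (95% interval -0.16 to 0.41; adjusted p 0.977 in edgeR), and 0.18 ± 0.13 without HB-4. This is the narrowest interval of the 11.

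SCD varied between 1.44 and 26.7 FPKM in HB (median 4.37) and between 2.05 and 6.52 FPKM in LB (median 3.74). HB-4 alone exceeded the LB range, with 4250 reads against 228 to 1166 in the other HB libraries, and HB-2 alone fell under it. SCD had the largest log2 difference of the members, 1.02 ± 0.62 (95% interval -0.32 to 2.37; adjusted p 0.977 in edgeR), and without HB-4 it was -0.01 ± 0.39.

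PPARG was low, at 1.02 to 5.91 FPKM in HB (median 1.57) and 1.72 to 2.93 FPKM in LB (median 2.40). HB-1, HB-2, HB-3 and HB-5 lay below every LB library and HB-4 and HB-6 (3.74 FPKM) above every one. The log2 difference was 0.14 ± 0.38 (95% interval -0.69 to 0.97; adjusted p 0.991 in edgeR) and -0.32 ± 0.28 without HB-4.

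**Figure D3:**
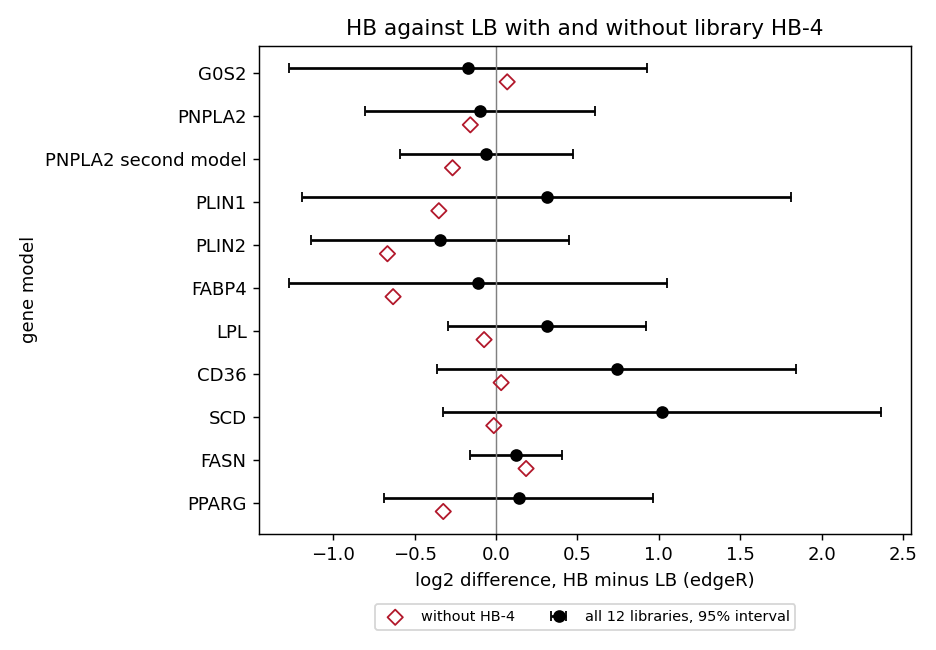
Log2 difference of HB minus LB in edgeR for the 11 gene models. Black points with bars give the fit of all 12 libraries with its 95% interval, and open red diamonds the fit without HB-4, where SCD lies at -0.01 beside 1.02 and CD36 at 0.03 beside 0.74.

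HB-4 held the highest of the 12 values for 7 of 11 members and the lowest for 1, beside 16.8% and 21.7% of all tested genes. HB-6 was among the 2 highest libraries for 6 members, and HB-3 held the lowest value for 3. The same shares over all tested genes were not computed for HB-6 and HB-3, so these counts are a description only. Leaving out HB-4 turned the sign of the log2 difference for 5 of 11 members, namely G0S2, PLIN1, LPL, SCD and PPARG, beside 17.6% of all tested genes.

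Relations between pairs of these genes were then examined across the 12 libraries. Correlations were computed on log2(FPKM + 0.1) with permutation tests, two-sided, over 6 pairs of genes, with Benjamini-Hochberg adjustment over the 6. Both genes of a pair share the depth and scaling of each library, and HB-4 takes part in each value over all 12 libraries. PLIN1 and FABP4 had Pearson r = 0.90 (permutation p 5e-05, adjusted p 3e-04) and Spearman rho = 0.90 (permutation p 0.00014). Within HB r was 0.94 (exact permutation p 0.00972, n = 6) and within LB 0.89 (exact permutation p 0.0139, n = 6), both not adjusted. By rank the relation was weaker, with rho = 0.83 within HB and within LB (exact permutation p 0.0583 in each, not adjusted). Without HB-3 and HB-4, the 2 libraries farthest from the median of PLIN1, r was 0.90.

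PPARG and PLIN1 had r = 0.82 (permutation p 0.00141, adjusted p 0.00352) and rho = 0.88 (permutation p 0.00029), and r = 0.94 without HB-1 and HB-4. Within HB r was 0.81 (exact permutation p 0.0667, n = 6) and within LB 0.90 (exact permutation p 0.0153, n = 6). By rank, rho was 0.60 within HB and 0.94 within LB (exact permutation p 0.242 and 0.0167, not adjusted). LPL and CD36 had r = 0.86 (permutation p 0.00176, adjusted p 0.00352) and rho = 0.64 (permutation p 0.0282, adjusted p 0.0564). That relation rests on the libraries with the highest LPL: without HB-4 and HB-6 r was 0.46 (permutation p 0.181). Within HB r was 0.95 (exact permutation p 0.00417, n = 6) and within LB 0.14 (exact permutation p 0.792, n = 6), and the difference between the groups in r was not tested. Without HB-4 alone r was 0.63, with an adjusted p of 0.0859 by permutation.

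The remaining 3 pairs did not pass. FASN and SCD had r = 0.02 (permutation p 0.954) and rho = 0.24 (permutation p 0.446). Within HB r was -0.16 and within LB 0.49 (exact permutation p 0.779 and 0.303, n = 6 each), and without HB-5 and LB-1 it was -0.41. PNPLA2 and G0S2 had r = -0.35 (permutation p 0.263, adjusted p 0.316) and rho = -0.44 (permutation p 0.153), with r = -0.63 within HB and -0.28 within LB (exact permutation p 0.179 and 0.578, n = 6 each). Without LB-4 and LB-6, the libraries farthest from the median of PNPLA2, r was -0.65 (permutation p 0.0418, not adjusted). Without HB-4 and HB-5, the libraries farthest from the median of G0S2, it was -0.42 (permutation p 0.224, not adjusted). By rank the groups differed in sign, with rho = -0.83 within HB and 0.20 within LB (exact permutation p 0.0583 and 0.714, not adjusted).

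ADIPOQ encodes the hormone adiponectin and was listed here as an adipocyte marker. PLIN1 and ADIPOQ had r = 0.42 (permutation p 0.176, adjusted p 0.265) and rho = 0.23 (permutation p 0.473). ADIPOQ stayed within 238 to 377 FPKM in HB and 224 to 324 FPKM in LB, and its highest HB library was 1.58 times the lowest, where PLIN1 differed 31.95 times. Within HB r was 0.84 (exact permutation p 0.0403, n = 6) and within LB it was -0.72 (exact permutation p 0.122, n = 6), and without HB-3 and HB-4 it was 0.30.

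All 55 pairs of the 11 gene models were then compared, a family chosen after the data had been seen, with adjustment over the 55. Spearman's rho had an adjusted permutation p under 0.05 for 13 pairs, of which 12 had a positive rho and 1 a negative one, and for 6 of these 13 also without HB-4. Pearson's r had one for 24 pairs, and for only 2 of them without HB-4, which were PLIN1 with FABP4 and LPL with the second PNPLA2 model. The pairs with a positive rho were the 10 pairs among PLIN1, PLIN2, FABP4, CD36 and PPARG, of which 5 also passed without HB-4, and those of LPL and PPARG with the second PNPLA2 model, which did not (adjusted permutation p of rho 0.124 and 0.134). G0S2 had a negative rho with 9 of the other 10, with FASN as the exception (0.37). Without HB-4, its rho was above 0 with FASN (0.21) and with the second PNPLA2 model (0.08). Several of these partners correlated with each other, so the 9 are not separate results. The pair with a negative rho that passed was G0S2 and CD36, with r = -0.92 (permutation p 0.00031, adjusted p 0.00568) and rho = -0.90 (permutation p 0.00029, adjusted p 0.0066). It had r = -0.93 within HB (exact permutation p 0.0139, n = 6) and r = -0.89 within LB (exact permutation p 0.00139, the smallest that 6 libraries allow), where the 6 libraries stood in exactly opposite order for the 2 genes. Without HB-4 and HB-5, the libraries farthest from the median of G0S2, r was -0.83 (permutation p 0.00203). The p-values within groups and without HB-4 and HB-5 were not adjusted for the 55 pairs, from which this pair was picked in the same libraries. Within LB, LB-1 held both the lowest G0S2 (293.8 FPKM) and the highest CD36 (46.2 FPKM). Without HB-4 alone rho was -0.86 (adjusted permutation p 0.0223), while r was -0.80 and no longer passed (adjusted permutation p 0.0612).

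**Figure D4:**
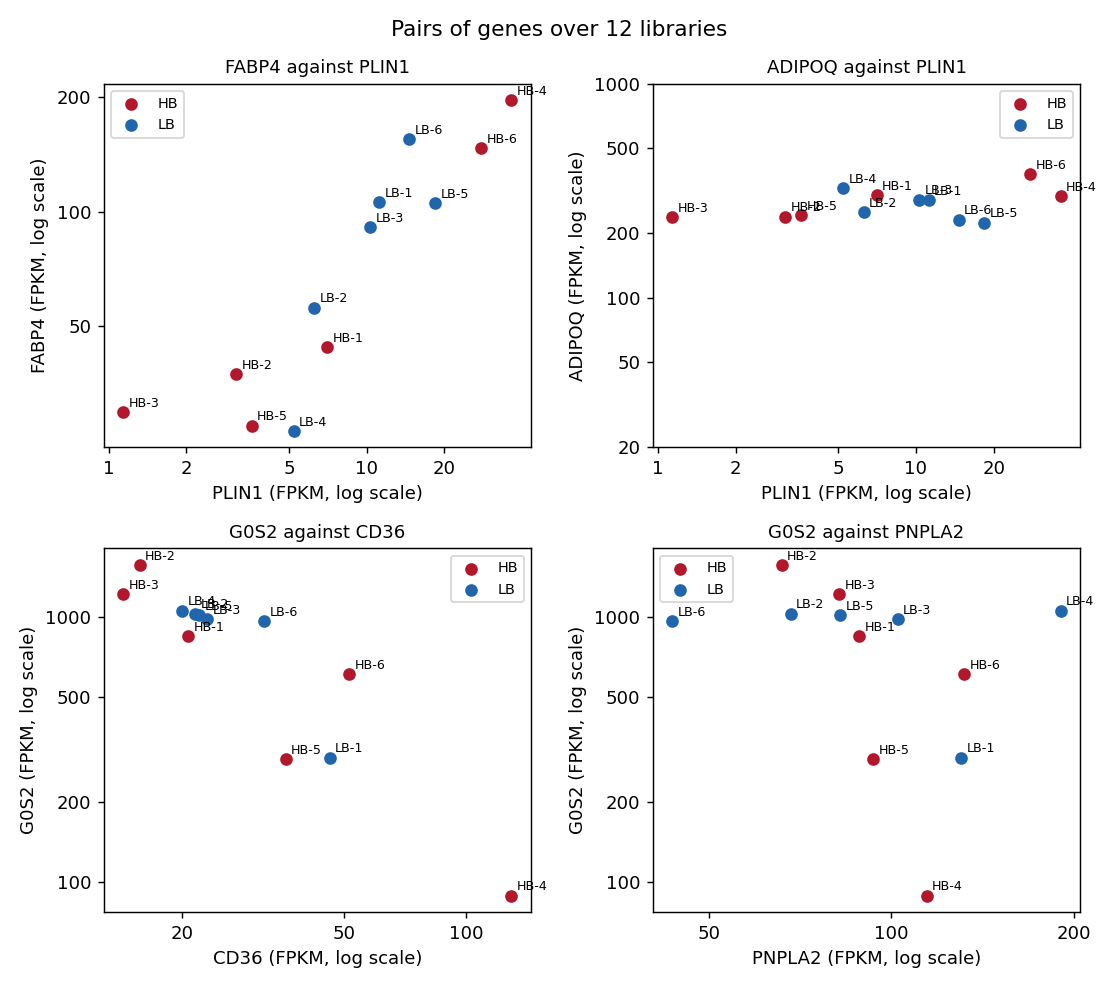
FPKM of 4 pairs of genes over the 12 libraries on log scales, HB in red and LB in blue, each point 1 library. FABP4 runs along with PLIN1 (r = 0.90), ADIPOQ stays within 224 to 377 FPKM at all PLIN1 levels, and G0S2 is lower where CD36 is higher (rho = -0.90). The pair of PNPLA2 and G0S2 (rho = -0.44, permutation p 0.153) did not pass.

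For 5 members the genes with the most similar pattern were taken as the 3 highest Spearman correlations over 12 libraries among 9959 named gene models with a mean of at least 1 FPKM. For PLIN1 these were AADAC (rho 0.97), SLC9A9 (0.96) and a second model named GPD1 (0.96), where AADAC encodes a lipase-like esterase and GPD1 names the enzyme that makes glycerol 3-phosphate. G0S2 ran closest to UQCRB (0.92), a subunit of respiratory complex III, WNT4 (0.92), a secreted signalling protein, and NOPCHAP1 (0.90). Those of PNPLA2 were SLC12A2 (0.87), VPS9D1 (0.85) and GMIP (0.84). CD36 ran closest to MAPKBP1 (0.965), a model of the macrophage receptor MRC1 (0.94) that is 1 of 6 with this name, and PTPN13 (0.92). SCD ran closest to the hypoxia-inducible factor gene HIF1A (0.92), the small GTPase RHOU (0.90) and KLRB1C (0.90). Without HB-4 these correlations lay between 0.83 and 0.98. They are the top of a large number of comparisons and are given as a description.

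Other genes of the same pathways were also not called. Over 6 lists, 82 gene models were tested, 55 with a log2 difference above 0 and 27 below, 0 with an adjusted p under 0.05 and 6 with an unadjusted p under 0.05 in edgeR. Without HB-4 the counts were 44 above and 38 below. Over all tested genes 49.9% were above 0, and 4.6% had an unadjusted p under 0.05 in edgeR. Without HB-4 the median log2 difference of all tested genes was -0.01, and their share above 0 was not computed. The droplet protein list had 7 of 8 tested models above 0, with a median log2 difference of 0.38, and 6 of 8 without HB-4, with a median of 0.15. A model of the droplet coat gene PLIN3 (ncbi_101799519) had 85.3 FPKM in HB-4, 1.81 to 8.72 in the other HB libraries and 1.96 to 3.84 in LB, and its log2 difference was 2.67 ± 0.91 and 0.58 without HB-4. The main PLIN3 model (ncbi_113845629) had 117 FPKM in HB-4, 21.2 to 46.5 in the other HB libraries and 25.2 to 45.6 in LB. FITM2, which helps droplets form at the endoplasmic reticulum, had a log2 difference of 0.65 ± 0.32, and of 0.27 without HB-4. Similar gene models may split reads, which makes both PLIN3 models uncertain.

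In the lipolysis list 6 of 8 models were above 0, with a median of 0.06, and without HB-4 also 6 of 8, with a median of 0.04. They include a model of LIPA (ncbi_101796874) with at most 0.19 FPKM. MGLL, the monoacylglycerol lipase that makes the last cut, had 43.9 to 217 FPKM in HB and 40.1 to 183 FPKM in LB. Its values were uneven: HB-3, HB-5 and LB-5 held 40.1 to 45.3 FPKM and the other 9 libraries 103.6 FPKM or more. LIPE, hormone-sensitive lipase, was matched to an assembled model with 2.72 to 6.88 FPKM in HB and 1.62 to 4.74 FPKM in LB. ABHD6, another lipase of monoacylglycerols, had a log2 difference of 0.16 ± 0.14. ABHD5, HILPDA and PLIN5, which act on PNPLA2, were matched to no gene model by name and were not analysed here.

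The list of uptake, binding and activation had 10 models above 0 and 7 below, with a median of 0.14, but 8 above and 9 below without HB-4, with a median of -0.02. FABP3, the fatty acid carrier of heart and muscle, had the smallest unadjusted p of the list (0.00743 in edgeR, adjusted p 0.977). It held 1184 FPKM in HB-4, 647 in HB-1 and 74.6 to 188.2 in the other HB libraries, against 91.9 to 129.7 in LB, and its log2 difference was 1.92 ± 0.61 and 1.15 without HB-4. LMF1, which folds lipoprotein lipase in the endoplasmic reticulum, had 0.92 to 1.23 FPKM in HB and 0.84 to 1.18 FPKM in LB (log2 difference 0.27 ± 0.11). ACSL6, an acyl-CoA synthetase, had 9.60 to 19.7 FPKM in HB and 4.25 to 13.4 FPKM in LB (0.58 ± 0.25).

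In the list of synthesis, elongation and desaturation 8 models were above and 8 below 0, with a median of 0.01, and without HB-4 the counts were 7 and 9, with a median of -0.03. ACACA, the carboxylase upstream of FASN, had 4.79 to 7.58 FPKM in HB and 4.67 to 6.86 FPKM in LB, close to the level of FASN. ACLY, which supplies acetyl-CoA for synthesis, and the elongase ELOVL7 had log2 differences of -0.16 ± 0.12 and -0.23 ± 0.13, and without HB-4 of -0.08 and -0.15. The elongase ELOVL5 had 0.36 ± 0.27, and 0.07 without HB-4.

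Of the triacylglycerol synthesis list, 11 models were above and 4 below 0, with a median of 0.13. Without HB-4 the counts were 9 and 6, with a median of 0.09. They include GPAT2 (at most 0.63 FPKM) and LPIN3 (means of 0.36 FPKM in HB and 0.52 in LB), both low. AGPAT2, the acyltransferase of the second step, had 10.01 to 18.7 FPKM in HB and 4.28 to 16.4 FPKM in LB, a log2 difference of 0.66 ± 0.28 (p 0.033 and adjusted p 0.977 in edgeR) that was 0.64 without HB-4. The first-step enzymes GPAM and GPAT4 had log2 differences of 0.43 ± 0.23 and 0.17 ± 0.08, and without HB-4 of 0.25 and 0.18. DGAT2, which adds the last fatty acid, had 33.6 FPKM in HB-4, 4.39 to 12.01 in the other HB libraries and 7.41 to 16.02 in LB, and its log2 difference was 0.09 with HB-4 and -0.61 without it.

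Among transcription regulators 13 models were above and 5 below 0, with a median of 0.34, and without HB-4 the counts were 8 and 10, with a median of -0.02. RXRA, the partner receptor of PPARG, had 12.8 to 18.7 FPKM in HB and 7.81 to 14.9 FPKM in LB, a log2 difference of 0.40 ± 0.13 (p 0.00914 and adjusted p 0.977 in edgeR) and 0.32 without HB-4. SREBF1, which controls FASN and SCD in liver, had 14.5 to 31.5 FPKM in HB and 10.8 to 28.9 FPKM in LB, and its escort protein SCAP a log2 difference of 0.35 ± 0.20. PPARA, the receptor for fatty acid oxidation genes, was also highest in HB-4 (3.46 FPKM), while the other 11 libraries held 0.51 to 1.45 FPKM. The coactivator PPARGC1A had 3.42 to 8.51 FPKM in HB and 1.55 to 6.70 FPKM in LB.

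**Figure D5:**
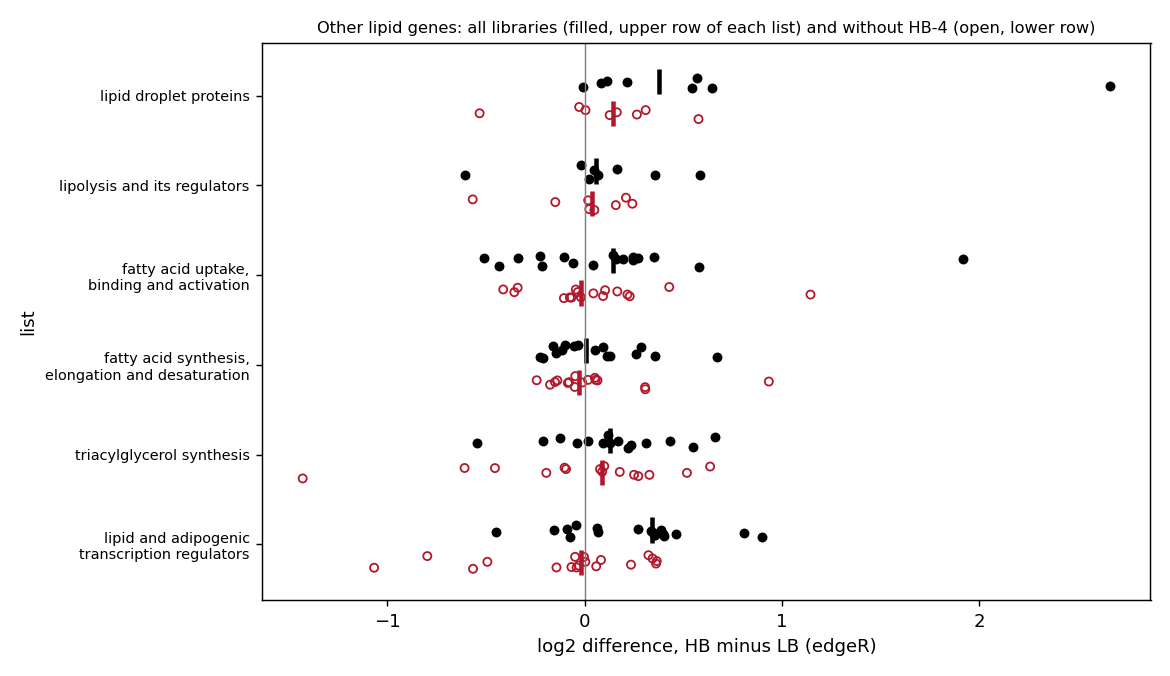
Log2 difference of HB minus LB in edgeR for each tested gene model of 6 lists of other lipid genes, with medians as vertical lines. Filled black points use all 12 libraries and open red points leave out HB-4, which moves the median of the transcription regulators to -0.02, beside 0.34 with all libraries.

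Markers of the cells that could carry these transcripts were set beside them. Of 10 adipocyte markers, 8 were found, among them PLIN1 and FABP4, and the sum of the other 6 was 245.5 to 391 FPKM in HB and 233.6 to 331 FPKM in LB. Nearly all of that sum was ADIPOQ, while PCK1 and ADIG, which are adipocyte genes in mammals, held at most 0.14 and 0.25 FPKM. HB-3 held 238 FPKM of ADIPOQ beside 1.14 FPKM of PLIN1. Whether ADIPOQ came from adipocytes in this muscle was not tested, so the sum is no measure of adipocyte content. CIDEC, a protein of large adipocyte droplets, had 7.25 FPKM in HB-4, 4.63 in HB-6 and 0.34 to 2.17 in the other HB libraries, against 0.65 to 4.37 in LB. The 2 HB libraries with the most CIDEC were those with the most PLIN1, FABP4 and PPARG. CIDEA was also highest in HB in these libraries (10.1 FPKM in HB-4 and 5.51 in HB-6). Other listed markers ordered the HB libraries differently. LIPE was highest in HB-1 (6.88 FPKM) and HB-4 (6.49), and ADIPOQ in HB-6 (377 FPKM) and HB-1 (302).

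The macrophage markers (7 of 8 found, in 12 models) summed to 78.5 to 194.5 FPKM in HB, highest in HB-6, and to 79.3 to 160.7 FPKM in LB. Fibroblast markers (5 of 6 found) summed to 551 to 1013 FPKM in HB, highest in HB-4, and to 641 to 1363 FPKM in LB. Endothelial models summed to 246.7 to 654 FPKM in HB and to 583 to 773 FPKM in LB. Lymphocyte markers summed to 7.27 to 16.6 FPKM in HB and 8.95 to 19.9 FPKM in LB, Schwann cell markers (3 of 5 found) to 8.76 to 14.2 FPKM in HB and 10.999 to 31.2 FPKM in LB, and skin keratins to at most 0.96 FPKM in HB and 0.73 FPKM in LB. Erythrocyte transcripts (3 of 9 found, in 5 models) summed to 5936 to 14594 FPKM in HB and 7315 to 11836 FPKM in LB. Slow or oxidative fibre markers (8 of 10 found) summed to 1733 to 5226 FPKM in HB and 1486 to 3099 FPKM in LB. Nearly all of that sum was MB, TNNC1 and FABP3, and FABP3 is also a lipid gene described above. MB (1.51) and FABP3 (1.92) had log2 differences above 0, while the other 4 of the 6 tested markers lay below 0. Leaving out HB-4 gave 3 above and 3 below. In HB-4 the sum of 3183 FPKM held only 5.56 FPKM of TNNC1. The sum is therefore no measure of slow fibre content. Skeletal muscle fibre markers (5 of 9 found) summed to 45180.5 to 76313 FPKM in HB and 40585 to 56747 FPKM in LB. The part of these cell types in the lipid gene values was not tested.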

How the data were processed

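RNA of 12 breast muscle samples was sequenced, 6 in HB and 6 in LB. Per the submitters' processing notes, fastp 0.18.0, HISAT2, StringTie 1.3.1 and DESeq2 were used; the sources used here name neither genome build, annotation nor counting step. Per the file headers, the authors deposited whole-number read counts per library, a mean FPKM per group, the log2 ratio of these means, and a p-value with its adjusted value. FPKM per library was computed by dividing each count by its library's total and by a gene length worked out from the deposited mean FPKM. Lengths from the HB and LB means differed by at most 0.465% over 10188 genes. FPKM per library was also deposited, in 12 further columns that were not used. The deposited log2 values equalled the ratio of the group means, and the deposited p-values of the members equalled those of DESeq2 with default settings. The columns name a group and a number that no label carries, so libraries are called by these names and are not paired. Of the numbered gene models, 14057 of 15747 matched the RefSeq gene table (assembly GCF_047663525.1), which was used for names and for placing genes on Z; it may not be the build of the alignment, so no coordinates are given.

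Deposited counts were compared in edgeR 4.0.16 under R 4.3.3 by its quasi-likelihood F test (TMM scaling, filterByExpr, Benjamini-Hochberg adjustment over all tested genes at 0.05), checked on simulated counts. Each SE is the absolute log2 difference divided by the square root of the F value. The members and gene lists were chosen with earlier results of these data known. Named were the members, 3 genes per list with the smallest p and a mean of at least 1 FPKM, 14 pathway genes where measured, and the 3 most similar genes of 5 members; 1 gene that this rule picked is not reported here. Library pairs of a group differed by more than sampling noise (smallest chi-square per degree of freedom 66.8). Alternatives were DESeq2 1.42.0, limma 3.58.1 on log2(FPKM + 1) and log2(FPKM + 0.1), voom with sample weights, other scalings, no filter, and removal of each library.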

Additional observations from a re-analysis of the deposited data

Results flagged for a closer look

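In groups of 6 libraries, a value was singled out by its gap to the nearest other library. That gap had to take up more of the group's FPKM range than Dixon's 95% limit allows. For normally distributed values chance passes this limit in about 1 of 20 groups, and whether FPKM values are so distributed was not tested. Of 70 groups examined over the members and named genes, 13 passed it, and HB-4 was the library in 9 of these. Over the same groups of all 12577 tested genes 10.1% passed it, and HB-4 was the library in 35.6% of those. Part of the named genes had been picked by a small p in the comparison that holds HB-4. Of the 22 groups of the members alone, 5 passed the limit. In these, HB-4 was highest in HB for LPL (101.3 FPKM), CD36 (129.3 FPKM) and SCD (26.7 FPKM). LB-1 stood apart in LB as lowest for G0S2 (293.8 FPKM, next 963) and highest for PLIN2 (112.6 FPKM, next 51.1).

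HB-4 was also highest in HB for both PLIN3 models (85.3 and 117 FPKM), FITM2 (22.8 FPKM), ELOVL5 (19.6 FPKM), DGAT2 (33.6 FPKM) and PPARA (3.46 FPKM). LB-6 was highest in LB for FITM2 (12.8 FPKM) and LB-1 for SCAP (18.4 FPKM).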

How the results depend on the processing

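Counts of called genes and of members without overlap were 0 in the alternatives run, except that DESeq2 called 1 gene. An unadjusted p under 0.05 was given to 729 genes by DESeq2, to 490 and 489 by limma with pseudocounts of 0.1 and 1, and to 720 by voom with sample weights. Of the alternatives other than leaving out a library, 284 kept direction and side of the threshold, 1 moved and 22 reversed, and of those leaving out a library 551 kept both, 1 was weaker, 1 moved and 35 reversed. DESeq2 and the other scalings and filter turned no member's sign. In limma (pseudocount 0.1, then 1) and voom, the log2 difference of PLIN1 was -0.56, -0.41 and -1.02, that of PPARG -0.16, -0.0706 and -0.36, that of CIDEC -0.40, -0.17 and -0.73, that of DGAT2 -0.28, -0.24 and -0.58, and that of MGLL -0.0941, -0.0924 and -0.23. PNPLA2 turned in limma only, to 0.0196 and 0.0181. LPL (-0.0233), SCD (-0.10) and the PLIN3 model ncbi_113845629 (-0.0347) turned in voom only. The correlation of FASN and SCD was -0.0553 on TMM-scaled CPM and -0.0101 with a pseudocount of 1. The cause was not tested.

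With 1 library left out, the log2 difference ranged from -0.63 to 0.0724 for FABP4, -0.49 to 0.069 for G0S2, -0.073 to 0.41 for LPL, -0.35 to 0.55 for PLIN1, -0.67 to 0.0678 for PLIN2, -0.26 to 0.19 for PNPLA2, -0.27 to 0.0721 for its second model, -0.32 to 0.30 for PPARG, -0.0133 to 1.24 for SCD and 0.03 to 1.01 for CD36. It ranged from -0.53 to 0.35 for CIDEC, -0.61 to 0.26 for DGAT2, -0.15 to 0.23 for MGLL and -0.14 to 0.60 for PPARA. The number of regulators above 0 ranged from 8 to 14, and r from -0.14 to 0.47 for FASN and SCD and from 0.63 to 0.90 for LPL and CD36. No paired analysis was possible because the column numbers of HB and LB are carried by no label. With 6 libraries a group the 95% intervals reached from -0.16 to 0.41 for FASN, the narrowest, and from -1.19 to 1.81 for PLIN1, the widest.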

Other observations

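LB-1, the library with the most PLIN2 and the least G0S2 of the LB group, also held the highest LB value of 13 of the 82 tested models of other lipid genes and the lowest of 36, beside 10.7% and 37.5% of all tested genes. The highest included 3 genes that were picked out after their values had been seen. GPAT3, an acyltransferase of the first step of triacylglycerol synthesis, had 63.4 FPKM in HB-4 and 4.53 to 16.7 in the other HB libraries, against 70.4 FPKM in LB-1 and 3.56 to 15.6 in the other LB libraries. ACSL4, an acyl-CoA synthetase with a preference for arachidonic acid in mammals, had 11.001 to 17.8 FPKM in HB, against 36.0 FPKM in LB-1 and 13.1 to 15.8 in the other LB libraries. ANGPTL4, a secreted inhibitor of lipoprotein lipase, had 116.6 FPKM in HB-6 and 5.51 to 18.9 in the other HB libraries, against 85.4 FPKM in LB-1 and 7.24 to 52.3 in the other LB libraries. LPL itself held 48.8 FPKM in HB-6 and 40.1 in LB-1.

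Among the regulators, CEBPB ran from 0.08 FPKM in HB-6 to 38.2 FPKM in HB-4 within HB, and from 0.01 to 9.52 FPKM within LB. KLF15, a factor of lipid and amino acid use in muscle, had 30.4 FPKM in HB-4 and 1.55 to 4.16 in the other HB libraries, against 2.39 to 8.55 in LB. CEBPB and KLF15 lie outside the rule for named genes. Not every regulator of the list was highest in HB-4: CEBPD had 156 FPKM in HB-4 and 178.9 FPKM in LB-4.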
